A study of Mus musculus with 12 samples.

Results

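The DNA replication machinery of LSKs (Lin- Sca-1+ c-Kit+), the cells of BM that contain the HSCs, was followed through 45 genes. The members were taken by gene symbol from a list of known parts of the machinery, with no measured value in the rule, although earlier results of these data were known when the list was made. All 45 were found in the expression table of 53465 genes, and each had at least 10 counts in every library, with counts between 217 and 17319. RNA-seq had been performed on LSKs of male mice aged 8 to 10 weeks, in 4 groups of 3 libraries. The groups were untreated Tespa1+/+ mice (littermate wild type), untreated Tespa1-/- mice, and mice of each genotype at day 9 after a single intraperitoneal dose of 150 mg/kg 5-FU, an antimetabolite that blocks thymidylate synthesis and kills cycling cells. Tespa1-/- mice carried the B6.129S-Tespa1tm1Smoc allele backcrossed to C57BL/6, so all their cells had the allele and not the LSKs alone. Whether the libraries of a group came from separate mice is not given by the labels, and the p-values below measure the spread between these libraries only. The comparisons ask how the loss of Tespa1 bears on the machinery at rest and in the regeneration after 5-FU, and how 5-FU bears on it in each genotype.

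Replication begins when the origin recognition complex, with Cdc6 and Cdt1, loads the ring of Mcm2 to Mcm7 onto DNA in G1 phase, a step called licensing that geminin (Gmnn) blocks once S phase has started. Cdc45 and the GINS complex then turn the ring into an active helicase, polymerase alpha with primase lays down primers, polymerases delta and epsilon extend them on the sliding clamp Pcna, and Fen1 and Lig1 join the fragments of the lagging strand. Most of these genes are transcribed late in G1 phase by E2F factors, and most HSCs rest outside the cycle until a stress such as 5-FU draws them into division.

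Levels of different genes were compared per length, as FPKM (fragments per kilobase of gene length, scaled to library size). The 4 highest members were subunits of the helicase ring, with median levels over the 12 libraries of 103 FPKM for Mcm6, 72.2 FPKM for Mcm4, 70.7 FPKM for Mcm3 and 53.0 FPKM for Mcm5. Chaf1a followed with 42.8 FPKM, ahead of the other ring subunits, Mcm7 with 39.2 FPKM and Mcm2 with 35.6 FPKM. The lowest medians belonged to Rfc3 with 3.47 FPKM, a subunit of the loader of the clamp, Gins3 with 3.88 FPKM and Dscc1 with 3.94 FPKM, a subunit of an alternative loader. The licensing factor Cdc6 stood 40th of the 45 with 5.40 FPKM, between a lowest library of 4.56 and a highest of 8.34. Neighbours in this order mostly overlapped in their ranges: Mcm4 ran from 70.4 to 75.5 FPKM and Mcm3 from 64.7 to 78.6 FPKM. Mcm6 alone lay apart, since its lowest library of 90.8 FPKM exceeded the highest library of each other member. The 6 genes of the ring held between 40.8% and 44.0% of all reads counted on the members, depending on the group.

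Promoters of the members are shown first because E2F sites are the textbook feature that ties these genes together. The letters TTTCCCGC, TTTCGCGC, TTTGCCGC and TTTGGCGC were searched on both strands in RefSeq windows (GRCm38.p6) from 250 bases before to 50 bases after each start, and overlapping matches were counted separately. They were found in 15 of the 35 members matched to a promoter, 42.9%, against 2.6% of the promoters of all 27025 genes. For comparison, 7 of 24 other replication genes (29.2%) and 1 of 17 mitotic genes (5.88%) held them. The letters TTTGAA, known as the CHR element of mitotic genes, were found in 14.3% of members, 70.6% of mitotic genes and 20.2% of all genes. CCAAT was found in 65.7% of members, 88.2% of mitotic genes and 41.1% of all genes. A match is a description of these letters and does not show binding. The windows below run from 160 bases before to 30 bases after the start, and capitals mark the E2F letters. Cdc6 (chr11:98907991-98908180, plus strand), Clspn (chr4:126556820-126557009, plus strand) and Chaf1a (chr17:56040256-56040445, plus strand) are shown as the members with the largest log2 fold changes among those called between genotypes after 5-FU that have a promoter in the table, where Gmnn has none. Mcm5 (chr8:75109349-75109538, plus strand) and Mcm6 (chr1:128359676-128359865, minus strand), chosen after their values were seen, are shown as subunits of one ring whose genotype differences after 5-FU had opposite signs.
Cdc6: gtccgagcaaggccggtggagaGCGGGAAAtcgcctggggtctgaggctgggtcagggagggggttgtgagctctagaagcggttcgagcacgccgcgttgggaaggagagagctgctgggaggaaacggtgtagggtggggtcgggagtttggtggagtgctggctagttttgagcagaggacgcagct
Clspn: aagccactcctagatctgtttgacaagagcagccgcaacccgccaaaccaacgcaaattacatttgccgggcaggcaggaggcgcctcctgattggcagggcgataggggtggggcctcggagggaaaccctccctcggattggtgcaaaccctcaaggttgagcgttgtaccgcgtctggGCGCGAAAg
Chaf1a: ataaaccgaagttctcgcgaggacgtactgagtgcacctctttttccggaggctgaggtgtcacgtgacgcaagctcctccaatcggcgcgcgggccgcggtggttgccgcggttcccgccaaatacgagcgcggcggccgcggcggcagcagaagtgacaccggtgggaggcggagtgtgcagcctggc
Mcm5: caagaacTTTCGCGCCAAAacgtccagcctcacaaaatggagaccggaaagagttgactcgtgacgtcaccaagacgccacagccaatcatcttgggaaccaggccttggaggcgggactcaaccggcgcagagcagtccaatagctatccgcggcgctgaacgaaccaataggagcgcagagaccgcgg
Mcm6: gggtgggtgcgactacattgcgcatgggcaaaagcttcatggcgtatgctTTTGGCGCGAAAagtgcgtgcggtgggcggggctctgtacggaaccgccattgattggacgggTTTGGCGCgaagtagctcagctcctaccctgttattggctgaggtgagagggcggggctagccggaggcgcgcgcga

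Chaf1a has no match to the searched letters in this window, and sites with other letters were not searched. The Mcm6 promoter holds 3 matches, of which those at -110 and -106 overlap, and the Mcm5 promoter holds a pair that also overlap. Of the 9 members that were called higher in Tespa1-/- LSKs after 5-FU and have a promoter in the table, 5 held E2F letters (55.6%), as did 10 of the 26 others (38.5%).

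Library totals ran from 22118154 to 28275079 counts. Tespa1 itself was lower but not absent in Tespa1-/- libraries, with 34.5, 34.98 and 34.9 CPM (counts scaled to library size with TMM factors) against 49.8, 43.0 and 46.5 in untreated Tespa1+/+, and with 20.8, 19.75 and 17.3 CPM against 47.2, 55.05 and 57.45 after 5-FU. Counts over the whole gene need not report on the deleted part. LSK markers were present in every library, Kit at 328 to 474 CPM among them. The summed share of 10 such markers after 5-FU was 0.0981% to 0.110% of counts in Tespa1-/- and 0.161% to 0.168% in Tespa1+/+. Of the 10, 7 were lower at an edgeR adjusted p below 0.05, where 7.34% of all genes were higher and 5.78% lower. Without treatment, 9 of the 10 had a negative genotype difference and 2 were called lower, beside 3.59% of all genes. After 5-FU, 11 neutrophil markers summed to 0.101% to 0.103% of counts in Tespa1-/- libraries and 0.000934% to 0.00135% in Tespa1+/+ libraries, with 9 of 11 higher. The untreated libraries had 0.000249% to 0.000801%. Ly6g, a marker of mature neutrophils, was at 0 in all 6 of them and at 15 to 43 counts in treated Tespa1-/- libraries. Cxcr2, from the same list, had 25 to 68 counts in the untreated libraries. After 5-FU Cxcr2 had 54, 77 and 161 counts in Tespa1-/- and 110, 142 and 164 in Tespa1+/+, while 10 of the 11 markers had a positive difference. The sum of 10 erythroid markers was 0.0660% to 0.0692% in Tespa1-/- after 5-FU and 0.0150% to 0.0157% in Tespa1+/+, with all 10 higher, and 0.008445% to 0.0136% without treatment. B cell markers summed to 0.0326% to 0.0345% and 0.0292% to 0.0305% after 5-FU and to at most 0.007585% without it. T and NK cell markers reached 0.00551% to 0.00640% in Tespa1-/- after 5-FU and at most 0.00393% in the other groups, and monocyte and macrophage markers 0.0234% to 0.0244% against 0.0228% to 0.0238%. The part of these cell types in the results below was not tested. In these bulk libraries a change in the cells present and a change in RNA per cell cannot be told apart.

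Without treatment, no member of the machinery differed between genotypes at an adjusted p below 0.05 in edgeR's quasi-likelihood test, where 1.64% of 17055 genes were higher and 3.59% lower in Tespa1-/- LSKs. At an unadjusted p below 0.05, 4 members were higher and 3 lower, beside 7.97% and 10.5% of all genes. DESeq2 called 2 members higher and 0 lower, beside 3.1% and 5.27% of all genes. The median log2 fold change of the 45 members was 0.01, as over all genes, with 24 members on the positive and 21 on the negative side. Pole2, the second subunit of polymerase epsilon, stood nearest to a call. Its 3 Tespa1-/- libraries at 18.8, 18.8 and 17.4 CPM lay above the 3 Tespa1+/+ libraries at 12.2, 13.4 and 12.99 CPM, a log2 fold change of 0.51 ± 0.13 (standard error, n = 3 per group, edgeR adjusted p = 0.0556). A neighbouring protein-coding gene on the same strand, Gm49384, shares 8.5% of the exon bases of Pole2, so their reads may not be separable. With DESeq2, Pole2 (adjusted p = 0.0167) and Mcm10 (adjusted p = 0.0352) were called.

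At day 9 after 5-FU, 10 of the 45 members were higher in Tespa1-/- than in Tespa1+/+ LSKs and none was lower, where 7.34% of 17239 genes were higher and 5.78% lower. DESeq2 called 11 higher and 0 lower, beside 9.44% and 7.88% of all genes. At an unadjusted p below 0.05 edgeR gave 20 higher and 1 lower, beside 14.2% and 12.6% of all genes. The 10 were Cdc6, Gmnn, Clspn, Chaf1a, Cdc45, Rpa1, Lig1, Mcm5, Pold1 and Slbp, and their log2 fold changes ran from 0.26 to 0.62. The median over all members was 0.13 against -0.01 over all genes, with 31 members positive and 14 negative. For 20 members every Tespa1-/- library lay above every Tespa1+/+ library, an order that 17.4% of all genes showed, and for 1 member, Mcm6, every library lay below, an order of 15.6% of genes. Of the 10 called members, Cdc6 alone passed a fold change of 1.5. Calls for Cdc6, Chaf1a, Clspn, Gmnn, Lig1 and Rpa1 held in each of the 13 refits with another tool, scaling, filter, block or sample set.

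**Figure D1:**
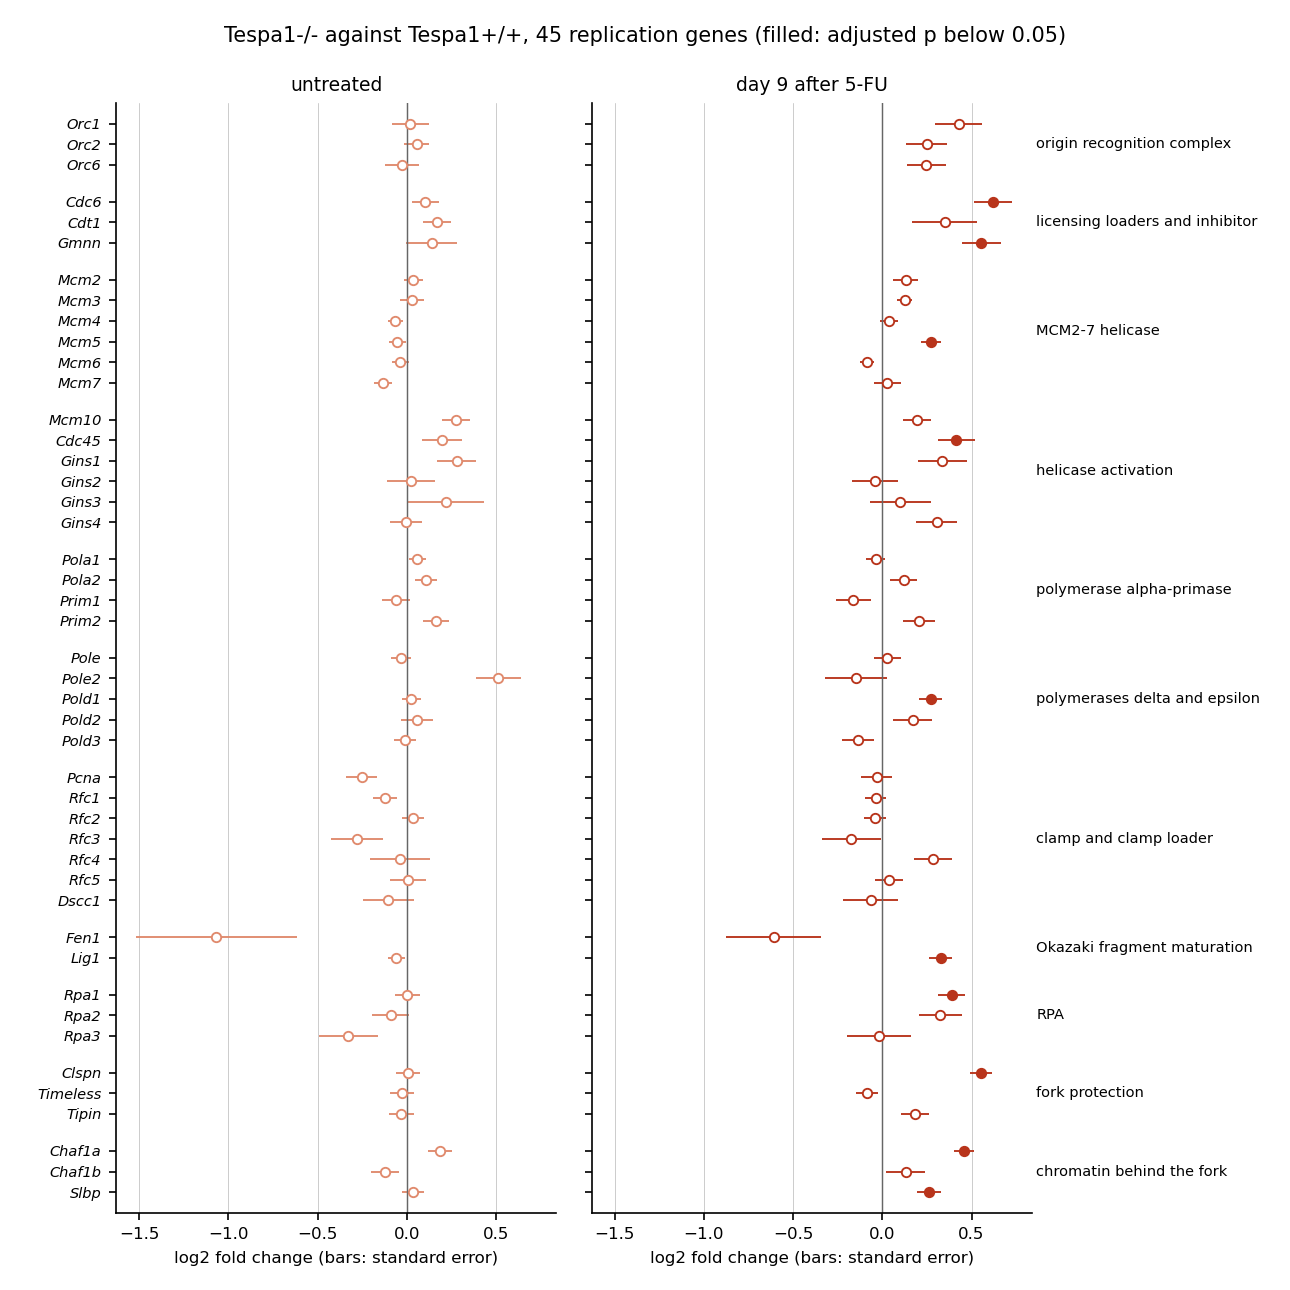
Log2 fold change of each of the 45 members in Tespa1-/- against Tespa1+/+ LSKs, untreated (left) and at day 9 after 5-FU (right), grouped by role. Bars are standard errors and filled points have an edgeR adjusted p below 0.05; 0 points are filled on the left and 10 on the right, all to the right of the zero line.

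Among the factors that load the helicase, Cdc6, the ATPase that recruits the ring to the origin, had the largest difference. Its Tespa1-/- libraries after 5-FU had 80.4, 70.3 and 76.4 CPM. The Tespa1+/+ libraries had 54.8, 49.6 and 43.0 CPM. Untreated libraries lay between 47.0 and 50.7 CPM in Tespa1+/+ and between 50.3 and 55.8 CPM in Tespa1-/-, so that the treated Tespa1-/- group stood above the other 9 libraries. The log2 fold change between genotypes after 5-FU was 0.62 ± 0.11 (edgeR adjusted p = 0.00494), which is 1.54-fold. Gmnn, which keeps Cdt1 from loading the ring a second time, had 41.2, 38.6 and 39.3 CPM in Tespa1-/- and 25.2, 29.6 and 26.1 CPM in Tespa1+/+ after 5-FU. Without treatment Gmnn had 29.25, 28.03 and 23.3 CPM in Tespa1+/+ and 28.3, 26.1 and 34.3 CPM in Tespa1-/-, so the treated Tespa1-/- libraries again exceeded all others. The difference was 0.56 ± 0.11 on the log2 scale (edgeR adjusted p = 0.0103). Cdt1 did not pass the test, with 0.35 ± 0.18 (edgeR adjusted p = 0.26). Its Tespa1+/+ libraries after 5-FU were spread from 48.9 to 87.2 CPM, wider than in any other group, and the Tespa1-/- libraries from 80.3 to 85.1 CPM. Without Tespa1+/+ replicate 1, the library at 87.2 CPM, the Cdt1 difference was 0.634 (edgeR adjusted p = 0.00597). Copies can draw reads from Cdc6: the pseudogene Gm9430 is 95.2% identical over 1528 bases, and it had at most 1.47 CPM in any library.

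None of the 3 subunits of the origin recognition complex was called, although all were positive, with log2 fold changes from 0.25 to 0.43. Orc1, the subunit whose level follows the cell cycle, had 22.8, 23.0 and 25.45 CPM in Tespa1-/- and 18.4, 16.2 and 18.2 CPM in Tespa1+/+ after 5-FU (0.43 ± 0.13, edgeR adjusted p = 0.0638). DESeq2 (adjusted p = 0.0407) and the fit of all 12 libraries (adjusted p = 0.0163) called it. The treated groups did not overlap, and the untreated libraries of both genotypes, at 23.4 to 26.25 CPM, overlapped the treated Tespa1-/- libraries and lay above the treated Tespa1+/+ ones.

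Of the helicase ring, Mcm5 alone was called between genotypes after 5-FU. Mcm5 had 319.5, 301 and 281 CPM in Tespa1-/- and 246, 254 and 244 CPM in Tespa1+/+ libraries, without overlap. The untreated libraries held 311, 289 and 315 CPM in Tespa1+/+ and 296, 299.8 and 287 CPM in Tespa1-/-, and so it was the treated Tespa1+/+ group that stood apart, below the other 9 libraries. The log2 fold change was 0.27 ± 0.06 (edgeR adjusted p = 0.0132), and the call was lost without Tespa1+/+ replicate 3 (adjusted p = 0.0524). Its neighbour in the ring, Mcm2, had 343, 350.3 and 293 CPM in Tespa1-/- and 308, 286 and 304 CPM in Tespa1+/+ after 5-FU, overlapping, with 318, 314 and 349 CPM and 323, 339 and 344 CPM in untreated Tespa1+/+ and Tespa1-/-. Mcm3 had 475, 499 and 499.7 CPM against 447, 457 and 444 CPM after 5-FU, and 531, 459.8 and 441 CPM against 494, 476 and 488 CPM in untreated Tespa1+/+ and Tespa1-/-. The treated groups of Mcm3 did not overlap but the difference of 0.13 ± 0.04 missed the threshold (edgeR adjusted p = 0.0841).

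None of the other subunits was called between genotypes. Mcm4 had 272, 254 and 252 CPM in Tespa1-/- and 254, 250.2 and 253 CPM in Tespa1+/+ after 5-FU, and 267, 261 and 258 CPM and 273, 274 and 275 CPM without it. Mcm7 had 283, 248.9 and 236 CPM and 268, 247 and 236 CPM after 5-FU, and 261, 281 and 259 CPM and 299, 298 and 282.5 CPM without it, in the same order of genotypes. Without treatment the Tespa1-/- libraries of Mcm4 and Mcm7 lay below all Tespa1+/+ libraries, an order of 13.2% of genes, with differences of -0.06 ± 0.04 and -0.13 ± 0.05 (edgeR adjusted p = 0.486 and 0.2105). Both overlapped after 5-FU, with differences of 0.04 ± 0.05 and 0.03 ± 0.08, and the sign for Mcm7 turned with library totals in place of TMM (-0.00057). Mcm6, the most abundant member, had 530.1, 535 and 527 CPM in Tespa1-/- and 579.8, 548 and 561 CPM in Tespa1+/+ after 5-FU, with the Tespa1-/- libraries lowest. Untreated, Mcm6 had 618, 621 and 681 CPM in Tespa1+/+ and 640.0, 620.0 and 612 CPM in Tespa1-/-, above every treated library. The difference between treated genotypes was -0.09 ± 0.04 (edgeR adjusted p = 0.188), of the opposite sign to that of Mcm5. Mcm7 shares 7.3% of its exon bases with Ap4m1, a protein-coding gene on the opposite strand, and has a pseudogene, Gm5487, of 97.7% identity.

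**Figure D2:**
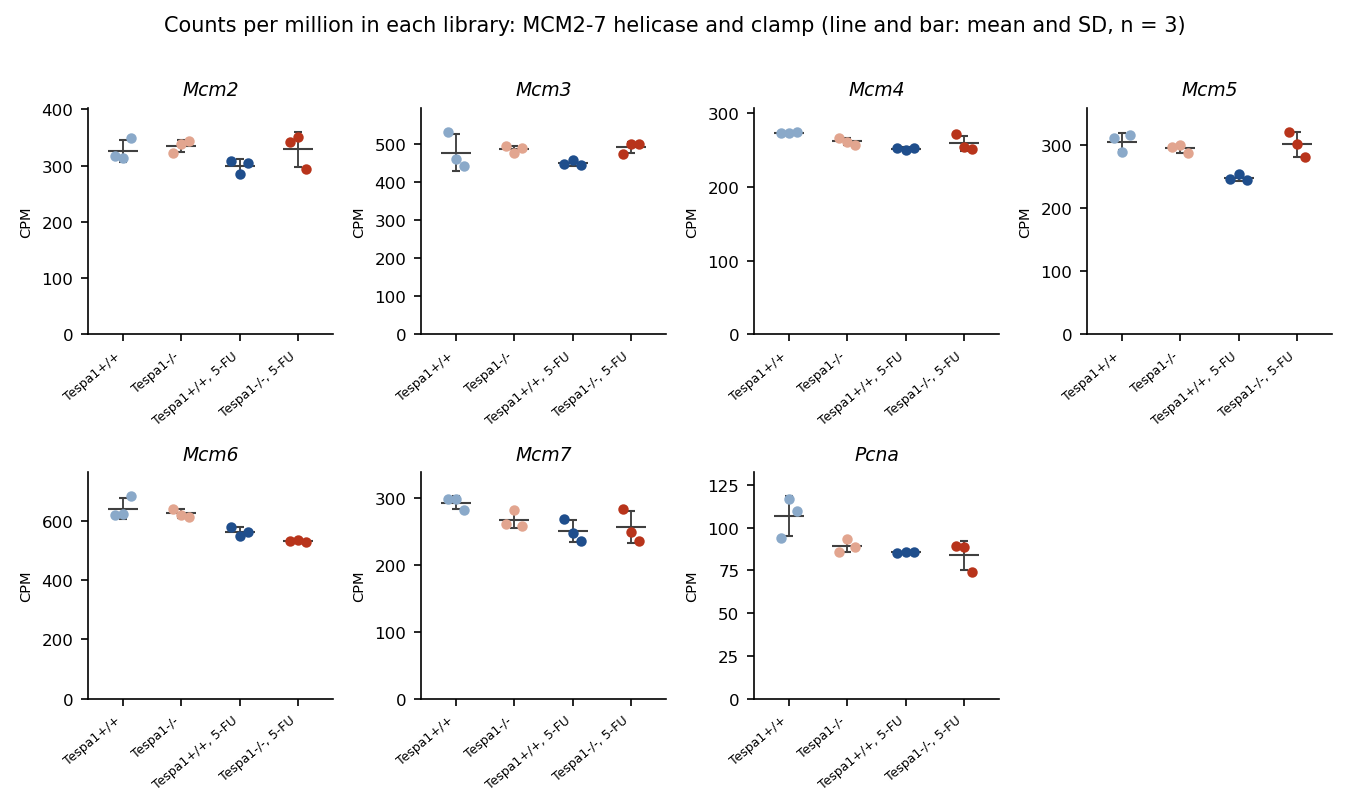
CPM of the 6 ring subunits and Pcna in each of the 12 libraries, with the mean and SD of each group (n = 3). The treated Tespa1+/+ libraries of Mcm5 lie between 244 and 254, below all other libraries, whereas those of Mcm6 lie above the treated Tespa1-/- libraries.

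Of the factors that activate the ring, Cdc45 was called. Cdc45, a part of the moving helicase, had 45.2, 45.6 and 42.4 CPM in Tespa1-/- and 36.1, 32.4 and 31.3 CPM in Tespa1+/+ after 5-FU, without overlap. Its log2 fold change was 0.41 ± 0.10 (edgeR adjusted p = 0.0279). This did not hold in 5 of 6 leave-one-out fits, the exception being the fit without Tespa1+/+ replicate 1, with adjusted p between 0.0548 and 0.0919. Mcm10 and the 4 GINS genes were not called, and their range was -0.04 to 0.34. The low end was Gins2, where the protein-coding gene Gse1 on the opposite strand covers 67.3% of the exon bases. Gins4 had 43.5, 45.04 and 37.0 CPM in Tespa1-/- and 31.3, 36.0 and 34.2 CPM in Tespa1+/+ after 5-FU against 33.5, 31.8 and 33.4 CPM and 31.8, 34.2 and 33.1 CPM without it. The treated Tespa1-/- libraries of Gins4 were the highest of the 12, though the difference between treated genotypes missed the threshold (0.30 ± 0.12, edgeR adjusted p = 0.124) and passed it in the fit of all 12 libraries (adjusted p = 0.0491).

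The polymerases and the clamp showed few differences between genotypes. Pold1, the catalytic subunit of polymerase delta, was the only polymerase gene called after 5-FU, at 163, 152 and 144 CPM in Tespa1-/- and 125, 125 and 130.4 CPM in Tespa1+/+ (0.27 ± 0.06, edgeR adjusted p = 0.0231). Without a library the call was lost in 4 of 6 fits, those without replicates 1 or 2 of either genotype, with adjusted p of 0.0622 to 0.0806. The others ranged from -0.16 for Prim1 to 0.21 for Prim2. Pcna, the clamp, had 89.1, 88.5 and 73.9 CPM in Tespa1-/- and 85.1, 85.7 and 85.9 CPM in Tespa1+/+ after 5-FU, overlapping, and 86.0, 93.6 and 88.7 CPM and 93.7, 117 and 109.6 CPM without it. The genotypes differed by -0.03 ± 0.09 after 5-FU, a sign that turned without Tespa1-/- replicate 3 (0.05). Of the 5 Rfc genes and Dscc1, which load the clamp, none was called, and log2 fold changes ran from -0.17 to 0.28. The pseudogene Pcna-ps2 is 99.2% identical to Pcna over 781 bases and had 115.9 to 165.7 CPM in the 12 libraries, more than Pcna itself, so the level of Pcna is uncertain and its reads may be split between these entries.

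Lig1, which seals the fragments of the lagging strand, had 258, 247 and 287 CPM in Tespa1-/- and 215, 203 and 212 CPM in Tespa1+/+ after 5-FU. Untreated libraries had 224, 219 and 221 CPM and 238, 222 and 232 CPM in the same order. The treated Tespa1-/- libraries were above all 9 others, and the treated Tespa1+/+ libraries below them. The difference after 5-FU was 0.33 ± 0.07 (edgeR adjusted p = 0.0109). Its partner Fen1, the flap nuclease, could not be read with the same precision. In untreated Tespa1+/+ libraries Fen1 had 118, 28.4 and 117 CPM, an SD of 58.6% of the mean, and after 5-FU 49.0, 111 and 103 CPM. The Tespa1-/- libraries lay between 36.0 and 66.6 CPM. Its log2 fold change after 5-FU was -0.61 ± 0.26 (edgeR adjusted p = 0.177), and without Tespa1+/+ replicate 1 it was -0.895 (adjusted p = 0.00643). Between untreated genotypes it was -1.07 and not called. Without untreated Tespa1+/+ replicate 2, the library at 28.4 CPM, it was -1.49 (edgeR adjusted p = 0.00411). The antisense gene Gm10143 covers 78.8% of the exon bases of Fen1, and whether the counting used strand is not given in the sources used here.

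RPA, the complex that coats single-stranded DNA, had its large subunit called. Rpa1 had 142, 157 and 139 CPM in Tespa1-/- and 106, 108 and 119.9 CPM in Tespa1+/+ after 5-FU, without overlap, against 117 to 135 CPM in untreated libraries of both genotypes. The difference was 0.39 ± 0.08 (edgeR adjusted p = 0.00884). Rpa2 and Rpa3 were not called, with 0.32 and -0.02. Clspn, which carries the checkpoint signal at stalled forks, gave the smallest adjusted p of the members. Its libraries had 173, 168.5 and 163.5 CPM in Tespa1-/- after 5-FU. In Tespa1+/+ they had 111, 119 and 113 CPM. Untreated libraries had 122, 121 and 108 CPM and 120.1, 118 and 112 CPM, so 9 libraries lay between 108 and 122 CPM and the treated Tespa1-/- group stood apart. The log2 fold change was 0.55 ± 0.06 (edgeR adjusted p = 0.000368), which is 1.47-fold. Timeless and Tipin, its partners at the fork, were not called between genotypes (-0.09 and 0.18).

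Of the genes for chromatin behind the fork, Chaf1a, the large subunit of the chaperone that places new histones H3 and H4, had 179.5, 185 and 185 CPM in Tespa1-/- and 129.5, 132 and 138 CPM in Tespa1+/+ after 5-FU. Untreated libraries had 151, 142 and 144 CPM and 131, 117 and 136 CPM, so the Tespa1-/- libraries were higher in both states without overlap. The difference was 0.46 ± 0.06 after 5-FU (edgeR adjusted p = 0.000798) and 0.19 ± 0.07 without treatment (adjusted p = 0.19). The protein-coding gene Ubxn6 on the opposite strand overlaps 52.5% of the exon bases of Chaf1a. The difference of Ubxn6 itself after 5-FU was -0.06 ± 0.15 with at most 33.2 CPM in the treated libraries. Slbp, which binds the stem-loop of histone mRNA, had 101 to 112 CPM in Tespa1-/- and 85.5 to 90.3 CPM in Tespa1+/+ (0.26 ± 0.07, edgeR adjusted p = 0.0343), and lost its call in each of the 6 fits without a library, with adjusted p between 0.0554 and 0.119, and with library totals in place of TMM (adjusted p = 0.0525). The pseudogene Gm8396 is 95.5% identical to Slbp over 828 bases. Chaf1b had 0.13 ± 0.11 and was not called.

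**Figure D3:**
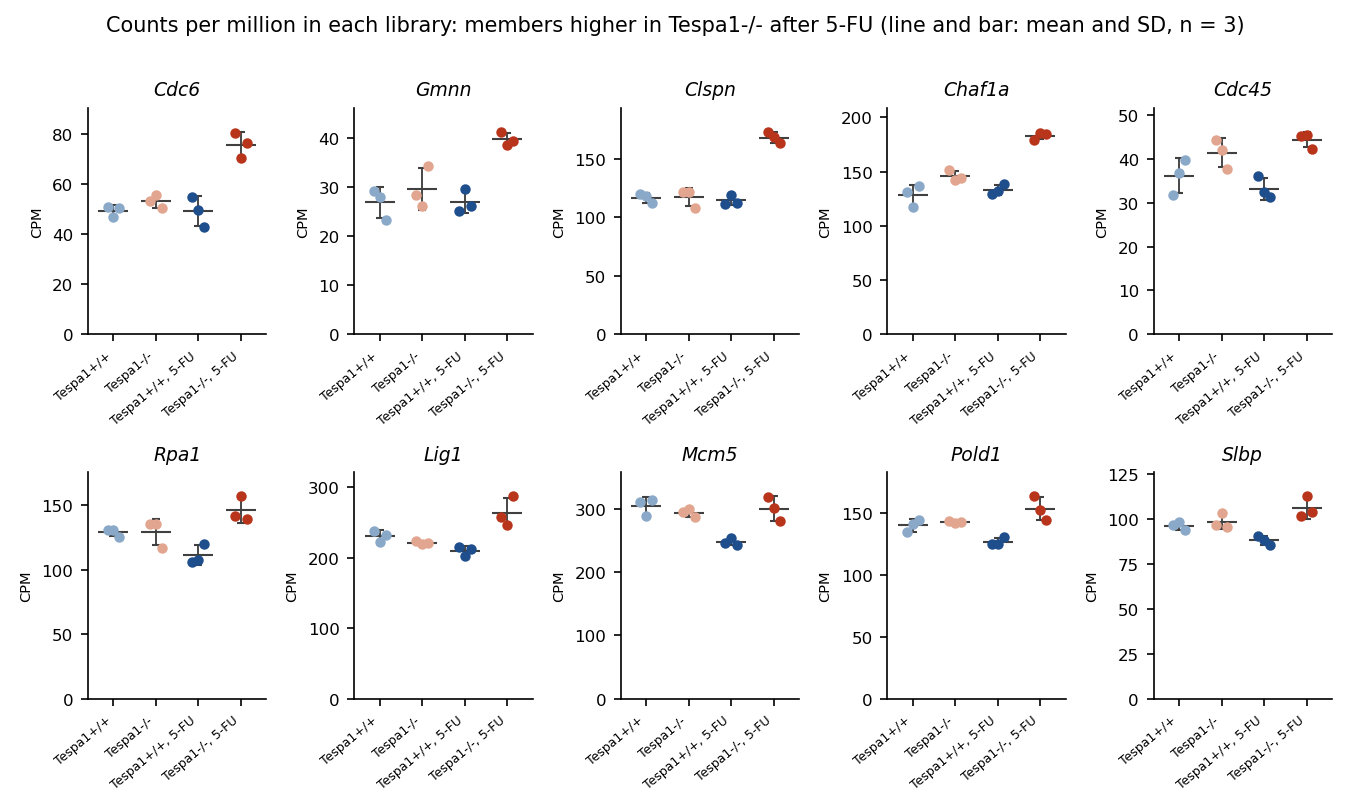
CPM in each of the 12 libraries for the 10 members called higher in Tespa1-/- LSKs after 5-FU, with the mean and SD of each group (n = 3) and axes that start at 0. For Cdc6, Gmnn, Clspn, Chaf1a, Lig1 and Rpa1 the treated Tespa1-/- libraries lie above all others, and for Mcm5, Pold1, Slbp and Lig1 the treated Tespa1+/+ libraries lie below all others.

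Within Tespa1+/+ LSKs, 5-FU at day 9 changed 1 member, Mcm5, which was lower than in untreated cells (log2 fold change -0.30 ± 0.05, edgeR adjusted p = 0.011), and none was higher, where 3.77% of 17002 genes were higher and 4.18% lower. With library totals in place of TMM the counts over all genes were 765 higher and 549 lower instead of 641 and 711. At an unadjusted p below 0.05, 1 member was higher and 11 were lower, beside 10.6% and 10.8% of all genes. DESeq2 called 0 members higher and 5 lower, beside 5.9% and 6.23% of all genes. The call for Mcm5 was lost without treated replicate 1 (adjusted p = 0.0504) or treated replicate 3 (adjusted p = 0.0501). All 6 ring subunits were negative, from -0.09 to -0.30 under TMM, and their signs were the same with RLE factors and with library totals. Over the 45 members the median was -0.09 against 0.01 over all genes. In 16 members every treated library lay below every untreated library, against 14.4% of all genes, and in 1, Pole2, every one lay above, against 14% of all genes. Orc1 (-0.49 ± 0.13), Pcna (-0.32 ± 0.09), Mcm7 (-0.23 ± 0.06) and Mcm6 (-0.18 ± 0.05) had edgeR adjusted p between 0.0565 and 0.0697. All 4 were called by DESeq2 and by the fit of all 12 libraries. Without untreated replicate 1, whose Pcna level of 93.7 CPM was the lowest of its group, Pcna (-0.402, adjusted p = 0.0267) and Mcm6 (-0.21, adjusted p = 0.0487) passed.

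Within Tespa1-/- LSKs, 5-FU raised 9 members and lowered 3, where 10.7% of 17228 genes were higher and 8.64% lower. The 9 were Clspn (0.51 ± 0.06), Cdc6 (0.50 ± 0.08), Gmnn (0.41 ± 0.11), Gins4 (0.34 ± 0.10), Chaf1a (0.32 ± 0.05), Chaf1b (0.25 ± 0.07), Cdt1 (0.24 ± 0.06), Lig1 (0.24 ± 0.06) and Tipin (0.23 ± 0.07), with edgeR adjusted p from 0.000629 to 0.0453. Both loaders and their inhibitor were therefore among them. With p left unadjusted, 10 members rose and 4 fell at the 0.05 cutoff, beside 17% and 15.4% of all genes. By DESeq2 10 rose and 4 fell, beside 12.2% and 10.3%. In these counts, as in the edgeR calls, falls were less frequent among members than over all genes. The median over members was 0.05 against -0.01 over all genes. In 13 members every treated library lay above every untreated one and in 5 below, orders that 20.3% and 18.2% of all genes showed. Clspn, Cdc6 and Chaf1a held in every refit. Of the others, Chaf1b lost its call without any 1 of the 6 libraries (adjusted p of 0.0719 to 0.158). Gins4 kept it only without treated replicate 3, Gmnn only without untreated replicate 3 and Tipin only without treated replicate 1, with adjusted p otherwise between 0.0627 and 0.137. Cdt1 kept it only without treated replicates 2 or 3, and had an adjusted p of 0.333 with all 12 libraries in one fit. Lig1 lost it without each untreated replicate (adjusted p of 0.0642 to 0.0848).

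The 3 members that 5-FU lowered in Tespa1-/- LSKs held in every refit. Pold3, the subunit of polymerase delta that binds the clamp, had 71.5, 73.55 and 64.6 CPM after 5-FU and 92.5, 88.1 and 86.4 CPM before (-0.36 ± 0.07, edgeR adjusted p = 0.0072). In Tespa1+/+ Pold3 had 71.3, 83.0 and 75.3 CPM after 5-FU and 92.05, 86.6 and 90.2 CPM without it (-0.23 ± 0.08, adjusted p = 0.153). Mcm6 moved by -0.24 ± 0.03 (edgeR adjusted p = 0.00135) in Tespa1-/- and by -0.18 ± 0.05 (adjusted p = 0.0565) in Tespa1+/+. Pola1, the catalytic subunit of polymerase alpha, had 189, 178 and 178 CPM after 5-FU and 216, 217 and 206 CPM without it in Tespa1-/- (-0.24 ± 0.05, edgeR adjusted p = 0.00983). Its Tespa1+/+ libraries had 186, 185 and 186 CPM after 5-FU and 203, 201 and 209 CPM without it (-0.14 ± 0.05, adjusted p = 0.181). For these 3 genes the treated libraries lay below the untreated ones in both genotypes, and the changes did not differ between genotypes at the threshold (interaction adjusted p of 0.514 to 0.744).

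**Figure D4:**
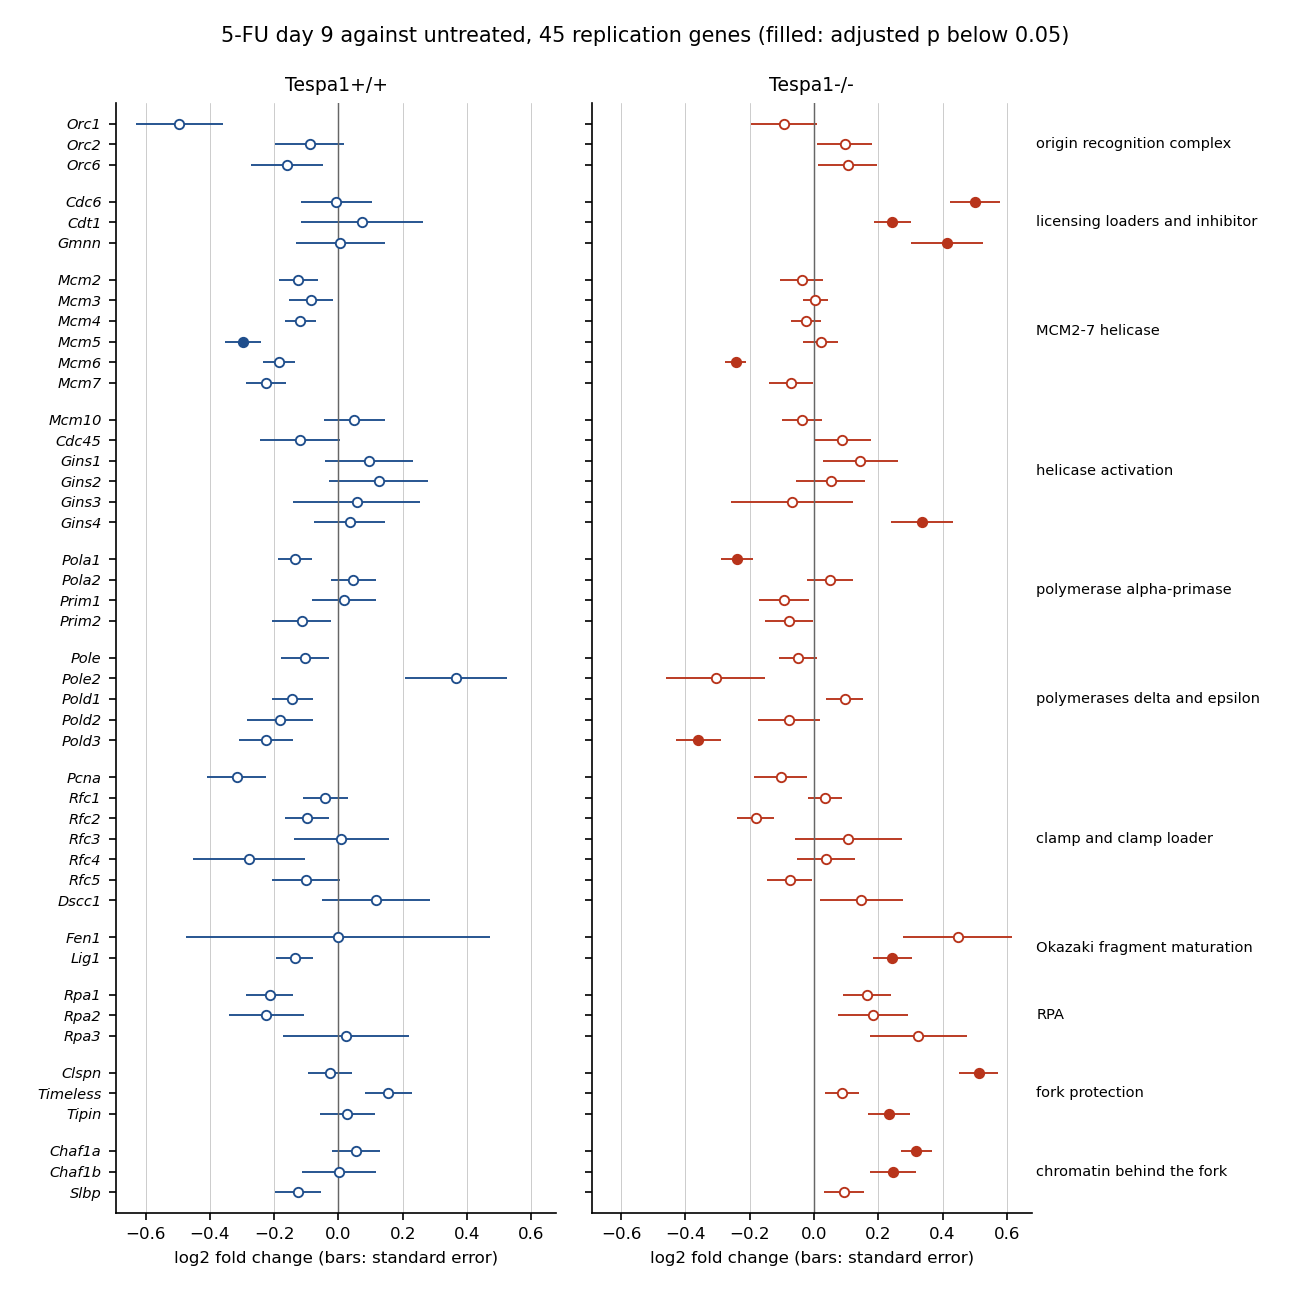
Log2 fold change of each of the 45 members at day 9 after 5-FU against untreated LSKs, in Tespa1+/+ (left) and Tespa1-/- (right), with standard errors. Filled points have an edgeR adjusted p below 0.05: 1 in Tespa1+/+, to the left of zero, and 12 in Tespa1-/-, 9 to the right and 3 to the left.

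The difference between genotypes in the change with 5-FU was tested as an interaction over all 12 libraries. It was positive for 4 members and negative for none, where 3.02% of 18696 genes were positive and 1.99% negative. At an unadjusted p below 0.05, 13 were positive and 1 negative, beside 9.79% and 8.9% of all genes. DESeq2 called 6 positive and 1 negative, beside 4.65% and 3.56% of all genes. The 4 were Clspn (0.55 ± 0.09, edgeR adjusted p = 0.00252), Lig1 (0.39 ± 0.08, adjusted p = 0.0131), Mcm5 (0.33 ± 0.08, adjusted p = 0.0236) and Cdc6 (0.52 ± 0.13, adjusted p = 0.0408). They reached this in different ways: Clspn and Cdc6 rose with 5-FU in Tespa1-/- while moving by -0.03 ± 0.07 and -0.01 ± 0.11 in Tespa1+/+, Mcm5 fell in Tespa1+/+ while moving by 0.02 ± 0.05 in Tespa1-/-, and Lig1 rose in Tespa1-/- with -0.14 ± 0.06 (adjusted p = 0.204) in Tespa1+/+. Clspn and Lig1 held in each of 18 refits. Cdc6 lost its call in 11 of the 12 fits without a library, all except that without treated Tespa1+/+ replicate 1 (adjusted p of 0.053 to 0.111), and with library totals in place of TMM (adjusted p = 0.0613). Mcm5 lost it in 7 of 12, those without replicates 1 or 2 of treated Tespa1-/-, 1 or 3 of untreated Tespa1-/-, 1 or 3 of treated Tespa1+/+ and 3 of untreated Tespa1+/+, with adjusted p of 0.0527 to 0.0723. The comparisons share libraries, so these values are not independent of those above. Side by side, 15 members had a negative change with 5-FU in Tespa1+/+ and a positive one in Tespa1-/-, 13 were positive in both, 13 negative in both, and 4 positive in Tespa1+/+ and negative in Tespa1-/-, among them Pole2.

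Of 27 other replication genes, 3 were higher and 1 lower in Tespa1-/- LSKs after 5-FU, beside 7.34% higher and 5.78% lower over all genes tested, so these counts are no result about the list. The one that was lower was Dtl (-0.38 ± 0.06, edgeR adjusted p = 0.00221), which marks Cdt1 for destruction at the fork, and Dna2 (0.42 ± 0.09, adjusted p = 0.0155) and Recql4 (0.63 ± 0.15, adjusted p = 0.0253) were higher. Of 16 regulators of the E2F and RB network, 4 were higher in Tespa1-/- after 5-FU and 0 lower, and those with the smallest adjusted p were the activator E2f2 (0.89 ± 0.11, adjusted p = 0.000720), E2f4 (0.51 ± 0.07, adjusted p = 0.0016) and the late repressor E2f8 (0.65 ± 0.09, adjusted p = 0.00198). The interaction was called for E2f2 alone of this list (0.98 ± 0.18, edgeR adjusted p = 0.00556), where 3.02% of all genes were positive.

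Mitotic genes were followed beside the members. Of 20, 19 were higher in Tespa1-/- after 5-FU and 0 lower, beside 7.34% and 5.78% of all genes (median log2 fold change 0.63, beside 0.13 for the members). With 5-FU in Tespa1-/- LSKs 18 of them rose, beside 10.7% of all genes. Mki67, the common marker of cycling cells, differed by 0.53 ± 0.02 (edgeR adjusted p = 2.19e-06) after 5-FU. Their summed share of counts was 0.505% to 0.518% in treated Tespa1-/- libraries and 0.352% to 0.364% in the other 9. The 45 members summed to 0.522% to 0.537% in treated Tespa1-/- libraries and 0.493% to 0.498% in treated Tespa1+/+ libraries, without overlap, and to 0.510% to 0.529% in the 6 untreated libraries. Within the members, the ring of Mcm2 to Mcm7 took 0.209% to 0.222% of counts in treated Tespa1-/- and 0.209% to 0.214% in treated Tespa1+/+ libraries, overlapping. The loaders and their inhibitor took 0.0189% to 0.0206% against 0.0121% to 0.0170%. The neutrophil, erythroid and LSK markers given above moved in the same treated Tespa1-/- libraries, and their part in these sums was not tested.

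**Figure D5:**
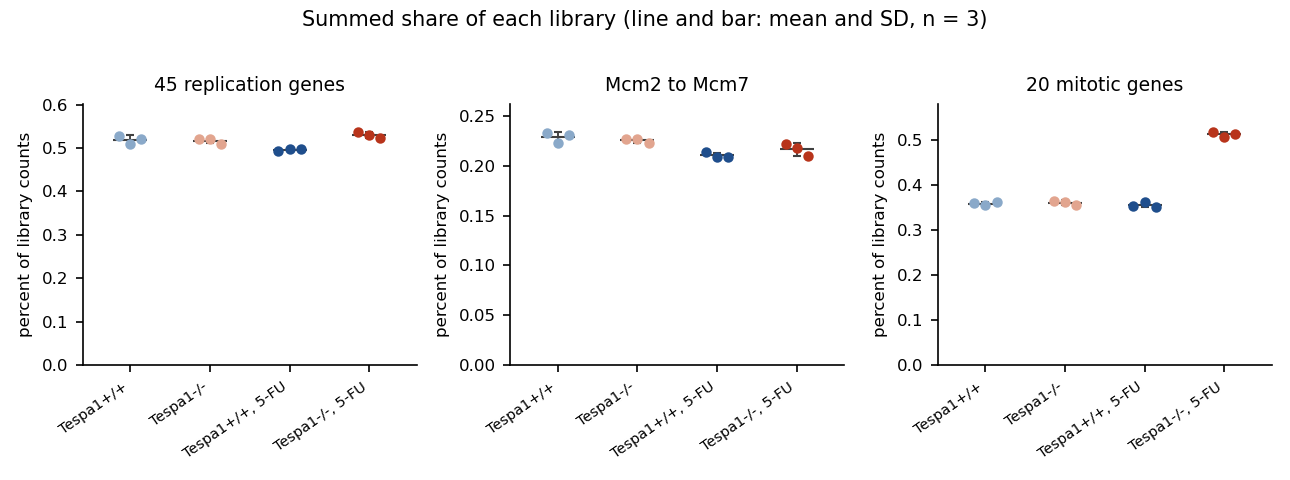
Percent of library counts taken by the 45 members, by Mcm2 to Mcm7 and by 20 mitotic genes in each of the 12 libraries, with the mean and SD of each group (n = 3) and axes from 0. The mitotic genes of treated Tespa1-/- libraries stand at 0.505% to 0.518%, above the other 9 libraries, while the share of Mcm2 to Mcm7 overlaps between the treated genotypes.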

How the data were processed

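The authors deposited, for each of the 12 libraries, the count of reads per gene without normalization and FPKM values, for 53465 genes. The submitters' processing notes name CASAVA 1.8, HISAT2, StringTie, edgeR and GRCm38, without a role for each, and whether the counting used strand is not given in the sources used here. Libraries were poly-A selected with a stranded paired-end kit. Groups and replicate numbers were taken from the labels.

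Tests on counts used edgeR 4.0.16 under R 4.3.3 (filterByExpr with a minimum count of 10, TMM, glmQLFit and glmQLFTest), on the 6 libraries of each pairwise comparison and on all 12 for the interaction, with Benjamini-Hochberg adjustment over all genes tested and a call at an adjusted p below 0.05. Standard errors were taken as the log2 fold change divided by the square root of the F statistic. CPM used TMM factors over the 12 libraries. The script was tested on simulated data. Alternatives were DESeq2 1.42.0, RLE factors, library totals, other filters, a fold change above 1.5, the same with an unadjusted P below 0.05, a joint fit of the 12 libraries, a replicate block, and fits that left out 1 library each.

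The members and the lists were chosen with earlier results of these data known. Named with values in every library were Mcm2 to Mcm7, Pcna, the 4 largest rises and falls among called members in each pairwise comparison and the members called in the interaction; from each other list at most 3 genes per comparison were named by adjusted p. Other names were chosen after their values were seen. Overlapping exons were read from GENCODE M21 and copies were found with BLAST 2.17.0 at 95% identity or more over at least 200 bases. Promoters are RefSeq windows, found for 35 members. Figures used matplotlib 3.10.9.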

Additional observations from a re-analysis of the deposited data

Results flagged for a closer look

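The genotype difference of 4 members was not the same with and without 5-FU by the edgeR interaction test, which called 3.02% of all genes positive and 1.99% negative. On the log2 scale, the difference after 5-FU exceeded the difference without treatment by 0.55 for Clspn, by 0.39 for Lig1, by 0.33 for Mcm5 and by 0.52 for Cdc6. For Clspn, Cdc6 and Lig1 the treated Tespa1-/- libraries were above the other 9 libraries, and for Mcm5 the treated Tespa1+/+ libraries were below the other 9. The calls for Clspn and Lig1 held in every refit, and those for Mcm5 and Cdc6 did not.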

How the results depend on the processing

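Single-gene values were compared over the refits for the called members and, between treated genotypes, for Mcm2 to Mcm7 and Pcna. Direction and side of the threshold were unchanged in 366 values, 79 were no longer past the threshold and 4 had the opposite sign. Calls held in every refit for 6 of 10 members between treated genotypes and for 0 of 1 with 5-FU in Tespa1+/+. They held for 6 of 12 with 5-FU in Tespa1-/- and for 2 of 4 in the interaction. Members that passed the threshold only in a refit are not in these counts. With a fold change above 1.5 added to the adjusted p, members called higher in Tespa1-/- after 5-FU numbered 1 (3.95% of all genes), and 0 were called in either direction with 5-FU in Tespa1+/+ (2.74% and 1.69% of all genes), in Tespa1-/- (6% and 4.07%) or in the interaction (1.66% and 1.55%). With the study's own thresholds (fold change over 1.5, unadjusted P under 0.05) the counts were 1 lower without treatment, 1 higher and 1 lower after 5-FU, 0 with 5-FU in either genotype, and 0 positive and 1 negative in the interaction, where over all genes between 3.54% and 7.78% were higher and between 3.2% and 6.58% lower, depending on the comparison. DESeq2 called 2 higher without treatment, 5 lower with 5-FU in Tespa1+/+ and 1 negative in the interaction. In Tespa1+/+ with 5-FU, 2 were lower with at least 10 counts in every library (5.13% of all genes) and 5 with all 12 libraries in one fit (5.79%). Leaving out each library gave 0 to 1 lower without treatment (Pcna without Tespa1+/+ replicate 1, Fen1 without replicate 2), beside 1.41% to 2.9% of all genes. After 5-FU it gave 7 to 9 higher, beside 4.63% to 5.59%, and 0 to 1 lower (Fen1 without Tespa1+/+ replicate 1), beside 3.66% to 3.96%. It gave 0 to 3 lower with 5-FU in Tespa1+/+, beside 2.31% to 3.24%, 3 to 6 higher with 5-FU in Tespa1-/-, beside 7.38% to 9%, and 2 to 4 in the interaction, beside 1.75% to 2.43%. The small Mcm7 difference between treated genotypes ranged from -0.0452 to 0.0859 without a library and was -0.00057 with library totals, and that of Pcna from -0.0746 to 0.0528. The summed share of the members in treated Tespa1+/+ libraries was 0.486% with TMM-scaled totals in place of 0.496%. Replicate numbers did not pair the libraries, with correlations of deviations between -0.0566 and 0.0253. With the replicate block 7 members were higher after 5-FU (Cdc45, Pold1 and Slbp were lost), beside 5.63% of all genes, 6 higher and 3 lower with 5-FU in Tespa1-/-, beside 9.25% and 7.2%, 1 lower with 5-FU in Tespa1+/+, beside 2.89%, and 4 positive in the interaction, beside 2.43%. The cause of these shifts was not tested. The lowest count of any member in a library was 217.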
